A study of Mus musculus with 16 samples.

Results

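Voltage-gated and potassium channel genes were examined in 16 single-colour arrays of mouse spinal cord. A gene belonged to the group when a probe set with 1 platform symbol carried a symbol of the Kcn, Scn (numbered a or b subunit), Cacn, Hcn or Clcn families. This rule used names alone and found 88 of 12488 probe sets, for 68 genes. Of these, 42 genes code for potassium channel subunits (51 probe sets), 12 for calcium channel subunits (13 probe sets), 6 for sodium channels (8 probe sets), 6 for chloride channels and exchangers (13 probe sets) and 2 for the mixed cation channels Hcn2 and Hcn3 (3 probe sets). The genes matched are a selection of each family, as the array carries it.

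The titles put 8 arrays among controls, 6 among spastic mice and 2 under the name B6C3Fe, which is a stock of hybrid mice. The spastic mutation, recessive, lies in Glrb, a subunit gene of the glycine receptor that inhibits motor neurons, and homozygous mice are rigid and tremble. Control cords were from a female and a male age group of 9 months and of 12 months, each on arrays a and b. Spastic cords were titled 1 and 2 (both 2-month females), sev (3-month male), 3+ months (male) and M (6-month female, arrays a and b), and the B6C3Fe cord was from 1-month males (arrays a and b). The meaning of sev and M, the strain of the controls and the genotype of the B6C3Fe mice beyond their name are not given in the labels. Arrays a and b of a title were averaged into 1 sample, giving 4 control samples, 5 spastic samples and 1 sample of B6C3Fe. Whether these are single animals is not stated, so p-values reflect the spread between these samples, which may be technical. All spastic mice were younger than all controls by title, apart from the open upper limit of 3+ months, so age and spastic state cannot be told apart in the comparison with controls.

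These genes set how a neuron fires. Sodium channels carry the rising phase of the action potential, voltage-gated potassium channels end it, and calcium channels couple it to transmitter release and to gene regulation. Calcium-activated potassium channels set the pauses after spikes, inward rectifiers and 2-pore channels hold the resting potential, Hcn channels drive pacemaker currents, and most numbered Clcn proteins studied here exchange chloride for protons in endosomes and lysosomes. In the spinal cord, several of these channels sit in fixed places along the myelinated axon, with sodium channels in the node of Ranvier and Kv1 potassium channels beside it, under the myelin.

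Values are log2 of the deposited intensities, and the differences given are those of a limma fit across all 6427 genes tested, with Benjamini-Hochberg adjustment. A gene was tested where its mean over all arrays passed 7.62 on the log2 scale, and it was called at an adjusted p under 0.05. Values at or under the floor of 60.9 (5.93 as log2) were raised to that floor. Of the 68 channel genes, 37 were tested: 21 of 42 potassium, 8 of 12 calcium, 2 of 6 sodium, 4 of 6 chloride genes and both Hcn genes. The dimmest channel gene tested had a mean of 7.72 and the brightest left out had 7.61.

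Glrb checked the group labels. It lay at 12.70 or above on every control array, at 11.11 or below on every spastic array and at 12.92 and 12.98 on the B6C3Fe arrays. The sex titled did not match the values on the 2 spastic arrays titled male: their Xist, an RNA of female cells, was at 10.37 and 10.54, just under the 10.55 of the lowest array titled female and far above the 5.97 of the highest other array titled male, and their Y-linked Eif2s3y was at the floor. All 6 spastic arrays thus had the female pattern, against 4 of the 8 control arrays. The fit used the titled sex, and cords are named below by their titles. The median intensity per array was 289 to 383.6, and 14.7% to 24.1% of probe sets lay at the floor. The log2 ratio of the 3-prime to the 5-prime Pcx control probe set, a sign of RNA integrity and labelling, was 1.31 to 2.72 on control, 2.00 to 2.98 on spastic and 1.67 to 1.89 on B6C3Fe arrays. Array a of the 9-month female controls had the control group's highest Pcx ratio, 2.72, against 1.31 on its array b. The median Pcx ratio was 1.53 on control and 2.37 on spastic arrays. Other control genes did not show a rise of that size. Control and spastic medians were 0.28 and -0.04 for Actb, -0.41 and -0.28 for Gapdh, and 1.485 and 1.215 for Tfrc. Of these ratios Pcx alone was used as a term in a fit below.

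The promoters of 4 genes whose levels are described below are printed here because their genes gave the largest falls and the rise among potassium channel genes. They are the 200 bases before each gene's start in RefSeq's table for GRCm38.p6, read 5′ to 3′ on the strand of the gene. Capitals mark the GC box GGGCGG on either strand. They lie at chr3:107101367-107101566 (Kcna2, plus strand), chr6:21215146-21215345 (Kcnd2, plus strand), chr3:64949012-64949211 (Kcnab1, plus strand, 1 of 3 entries) and chr8:70863259-70863458 (Kcnn1, minus strand, 1 of 2 entries).
Kcna2: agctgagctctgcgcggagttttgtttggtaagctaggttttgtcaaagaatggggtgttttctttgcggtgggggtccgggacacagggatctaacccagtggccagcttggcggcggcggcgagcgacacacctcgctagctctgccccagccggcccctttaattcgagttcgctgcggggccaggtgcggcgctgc
Kcnd2: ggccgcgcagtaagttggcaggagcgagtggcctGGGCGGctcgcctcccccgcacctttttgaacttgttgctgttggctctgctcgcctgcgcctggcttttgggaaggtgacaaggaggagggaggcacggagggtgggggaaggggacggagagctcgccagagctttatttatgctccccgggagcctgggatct
Kcnab1: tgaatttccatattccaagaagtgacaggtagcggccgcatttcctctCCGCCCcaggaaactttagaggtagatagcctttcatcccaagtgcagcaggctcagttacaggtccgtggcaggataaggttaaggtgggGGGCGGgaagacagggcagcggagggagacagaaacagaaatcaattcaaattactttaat
Kcnn1: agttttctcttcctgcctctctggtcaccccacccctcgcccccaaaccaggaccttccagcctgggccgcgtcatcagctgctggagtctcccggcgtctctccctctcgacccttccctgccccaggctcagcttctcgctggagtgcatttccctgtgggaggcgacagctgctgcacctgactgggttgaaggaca

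The GC box stood 2 times in the Kcnab1 window, 1 time in that of Kcnd2 and 0 times in those of Kcna2 and Kcnn1. Among all 27025 symbols with an entry, 31.3% of windows held it, and among the 53 channel genes with an entry, 52.8%. The CRE half-site TGACG on either strand was in the window of Kcnn1 and in 15.8% of all windows. The CCAAT box (30% of all windows) and the TATA box TATAAA (10.6%), each searched on both strands, were in none of the 7 windows of channel genes called below. Matches of different motifs may share bases. The GC content of the windows was 62% for Kcna2, 64% for Kcnd2, 49.5% for Kcnab1 and 63.5% for Kcnn1, against a median of 53% over all windows. These matches describe the letters alone.

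Spastic and control cords were compared to see which channel transcripts differ in the mutant. In spastic cords 6 channel genes fell and 1 rose. The falls were in the voltage-gated potassium channels Kcna2 and Kcnd2, the Kv1 auxiliary subunit Kcnab1, the large-conductance calcium-activated potassium channel Kcnma1, and the calcium channel subunits Cacna2d3 and Cacnb2. The rise was in Kcnn1, a small-conductance calcium-activated potassium channel. The changes were 1.36-fold to 2.30-fold in size. With 7 of 37 tested genes called, the share of 18.9% was close to the 19.8% called among all genes tested. The 1 gene higher is 2.7% of channel genes, against 9.83% called higher among all genes, and the 6 lower are 16.2%, against 9.93%. Values of the spastic and control samples did not overlap for 6 of 37 genes, 16.2%, against 19.5% of all genes. Overlap here and below is that of samples, so single arrays may overlap where samples do not. At an unadjusted p under 0.05 stood 10 of 37 channel genes and 2203 of all genes. The median difference over the 37 was 0.04, beside -0.02 over all genes tested. The filter on dim probe sets keeps a gene more readily when 1 group is high, so the counts over tested genes describe those genes only. In bulk tissue, fewer cells of a type and less RNA per cell cannot be told apart.

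By ion, 1 of 21 potassium channel genes rose and 4 fell. Of 8 calcium channel genes 2 fell and 0 rose. None of the 2 sodium, 2 Hcn and 4 chloride genes tested passed the test in limma's fit. Among all genes tested 9.83% were called higher and 9.93% lower, and with so few genes these counts do not set the ions apart. Clcn4 alone of the sodium, Hcn and chloride genes had an unadjusted p under 0.05 in that fit (0.0287). The median difference was 0.04 for potassium, -0.24 for calcium, -0.17 for sodium, 0.25 for Hcn and 0.15 for chloride genes.

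**Figure D1:**
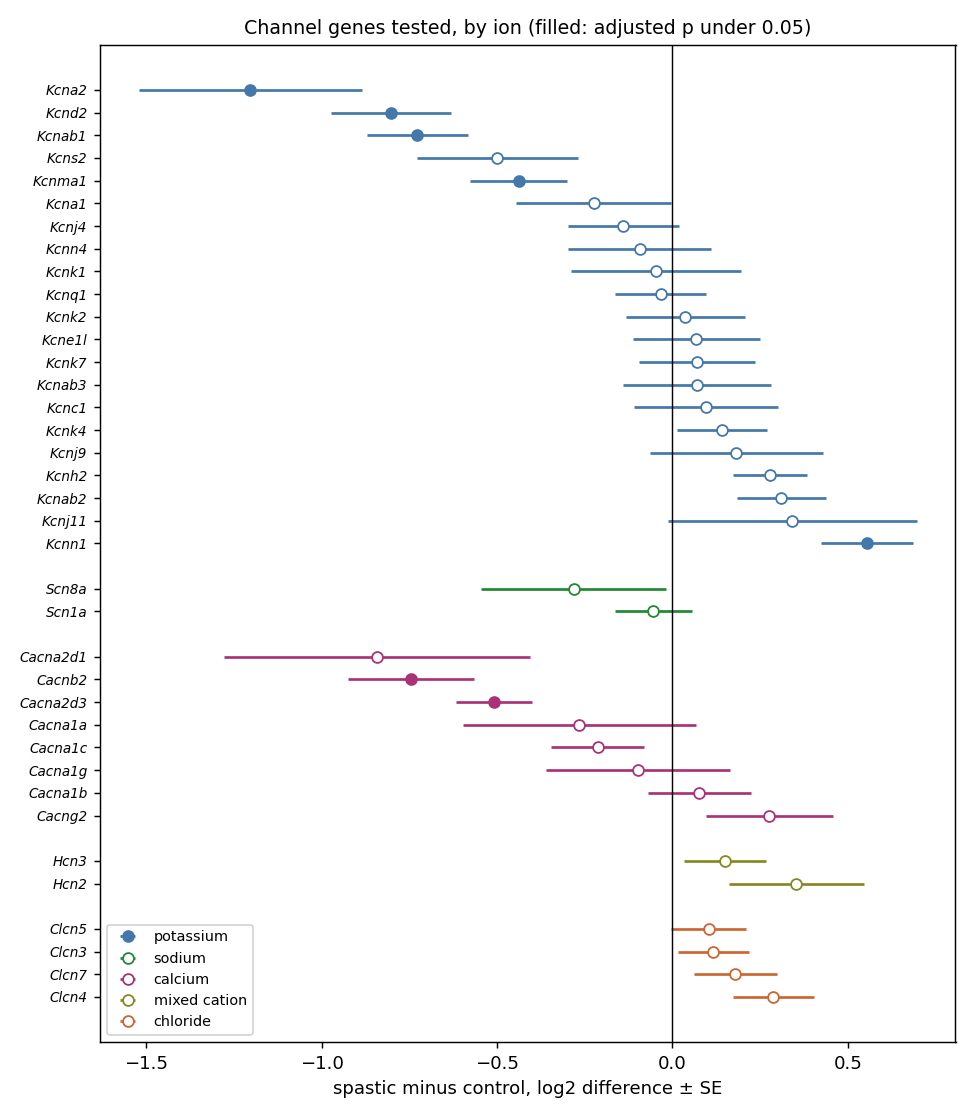
Log2 difference, spastic minus control, with its standard error for each of the 37 channel genes tested, grouped by ion; filled points passed the test. The filled points are 4 potassium and 2 calcium channel genes to the left of 0 and Kcnn1 to the right, while chloride and Hcn genes all lie right of 0 with none filled.

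Kcna2, the Kv1.2 subunit of the potassium channels beside the node of Ranvier, had the largest difference. It was at 7.96 and 9.02 in the 9-month female and male controls and at 9.35 and 9.48 in the 12-month female and male controls. In spastic cords it was at 7.69 and 8.24 in those titled 1 and 2, at 7.88 in sev, at 7.17 in the 3+ month male and at 7.73 in M, and the B6C3Fe cord was at 8.34. The 9-month female control lay among the spastic values, so the groups overlapped, and its 2 arrays differed widely (6.86 on array a, 9.06 on array b). Kcna2 fell by 1.20 on the log2 scale, or 2.30-fold, in spastic cords (SE 0.32, adjusted p = 0.0229, limma). Without array a of that control the difference was -1.50 (adjusted p = 0.00115), and it was -0.77 with the 2 male-titled spastic samples dropped (adjusted p = 0.255, limma). The call was also lost without the 9-month male control, either 12-month control or the 3+ month spastic male (differences of -0.98 to -1.61 over the fits that leave out 1 sample).

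Kcnab1 codes for a beta subunit that binds Kv1 channels inside the cell and can make them inactivate. Its values were 10.94 and 10.76 in the 9-month female and male controls, 10.83 and 10.61 in the 12-month female and male controls, 10.01 and 10.06 in spastic cords 1 and 2, 10.45 in sev, 10.04 in the 3+ month male, and 9.68 in M. All spastic cords were below all controls, and the B6C3Fe cord, at 9.78, was below the controls too. The mean was 10.78 ± 0.14 (SD, n = 4) in controls and 10.05 ± 0.27 (SD, n = 5) in spastic cords, a 1.66-fold fall (log2 difference -0.73, SE 0.14, adjusted p = 0.00643, limma). A further Kcnab1 probe set of the maker's class f, which can read related transcripts, was at 7.80 ± 0.21 (SD, n = 4) in controls and 7.70 ± 0.24 (SD, n = 5) in spastic cords, a difference of -0.10 (SE 0.17).

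Other genes of the Kv1 family were less clear. Kcna1, the Kv1.1 subunit, ran from 11.51 to 12.69 in controls and from 11.70 to 12.30 in spastic cords (difference -0.22, SE 0.22, adjusted p = 0.512, limma). Kcnab2, a further beta subunit, was at 12.03 ± 0.21 (SD, n = 4) in controls and 12.33 ± 0.22 (SD, n = 5) in spastic cords (difference 0.31, adjusted p = 0.11, limma). Kcna3, Kcna4, Kcna5, Kcna6 and Kcna7 lay under the filter and were not tested in this fit. These Kcna and Kcnab2 genes are given because they belong to the family of 2 genes that fell, a choice made with their values known.

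Kcnd2, the Kv4.2 channel, carries the fast transient potassium current of dendrites. It was at 10.35 and 9.94 in the 9-month female and male controls and at 10.06 and 9.60 in the 12-month female and male controls. Spastic cords 1 and 2 were at 9.08 and 9.18, the 3+ month male at 9.09 and M at 9.02, while sev was higher, at 9.59, just under the lowest control. The groups did not overlap, and the fall was 1.74-fold (log2 difference -0.80, SE 0.17, adjusted p = 0.00921, limma). The B6C3Fe cord was at 9.33. A further Kcnd2 probe set, below the filter, went from 8.03 ± 0.40 (SD, n = 4) in controls to 6.09 ± 0.22 (SD, n = 5) in spastic cords, with 4 of 6 spastic arrays at the floor. In the fit of every probe set without a filter its difference was -1.95 (SE 0.21, adjusted p = 0.00754, limma). Both Kcnd2 probe sets were thus lower in spastic cords, by sizes that differ. The one tested carries the maker's suffix r, as do the probe sets tested of Hcn2 and Kcnq1.

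The calcium-activated potassium channels moved both ways. Kcnma1, the large-conductance BK channel that opens to calcium and voltage, was at 10.85 and 10.75 in the 9-month female and male controls and at 11.03 in both 12-month controls. It was at 10.31 and 10.61 in spastic cords 1 and 2, 10.71 in sev, 10.12 in the 3+ month male and 10.70 in M. The highest spastic cord was just below the lowest control, and the fall was the smallest of the 6 (1.36-fold; difference -0.44, SE 0.14, adjusted p = 0.0449, limma). The B6C3Fe cord, at 11.06, was at the level of the controls. The call was lost when any of the controls or spastic cord 1, spastic cord 2 or the 3+ month male was left out (difference -0.54 to -0.33 over the fits that leave out 1 sample).

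Kcnn1, the small-conductance SK1 channel that calcium opens after a spike, was the channel gene that rose. It was at 9.29 and 9.56 in the 9-month female and male controls and at 9.40 and 8.97 in the 12-month female and male controls. Spastic cords lay close together, at 9.83 and 9.81 in those titled 1 and 2, 9.97 in sev, 9.87 in the 3+ month male and 9.81 in M. All spastic cords were above all controls, and the rise was 1.47-fold (log2 difference 0.55, SE 0.13, adjusted p = 0.0148, limma). The B6C3Fe cord was higher still, at 10.07. Kcnn4, the intermediate-conductance channel of the same family, ran from 8.11 to 8.71 in controls and from 7.98 to 8.78 in spastic cords (difference -0.09), and is named as the next of kin with its values known.

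Cacna2d3 codes for an alpha-2-delta subunit, an extracellular part that brings calcium channels to the membrane and to synapses. It was at 10.75 and 10.54 in the 9-month female and male controls and at 10.64 and 10.45 in the 12-month female and male controls. It was at 10.22 and 10.36 in spastic cords 1 and 2, 10.13 in sev, 9.80 in the 3+ month male and 10.04 in M, all below the controls. The fall was 1.42-fold (log2 difference -0.51, SE 0.11, adjusted p = 0.0091, limma), and the B6C3Fe cord was at 10.22, within the spastic range. Cacna2d1, its relative and the target of gabapentin, is given with its values known. It ran from 7.61 to 8.80 in controls and from the floor of 5.93 to 8.48 in spastic cords, and its difference of -0.84 (SE 0.44) did not pass the test (adjusted p = 0.198, limma).

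Cacnb2 codes for a beta subunit, which binds the pore subunit from the inside of the cell. It was at 9.14 and 9.62 in the 9-month female and male controls and at 9.62 and 10.25 in the 12-month female and male controls. Spastic cords lay at 8.84 in that titled 1, 8.96 in sev, 8.77 in the 3+ month male, 8.89 in M and 9.003 in that titled 2. The value of M is the mean of arrays that differed more widely, 8.57 on array a and 9.21 on array b. The samples of the groups did not overlap, and the fall was 1.68-fold (log2 difference -0.75, SE 0.18, adjusted p = 0.0164, limma). Array a of the 9-month female controls, at 8.77, lay among the spastic arrays, while its array b was at 9.52. The B6C3Fe cord, at 10.07, was at the level of the controls. The call was lost without the 12-month female control (difference -0.71, adjusted p = 0.0564, limma).

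**Figure D2:**
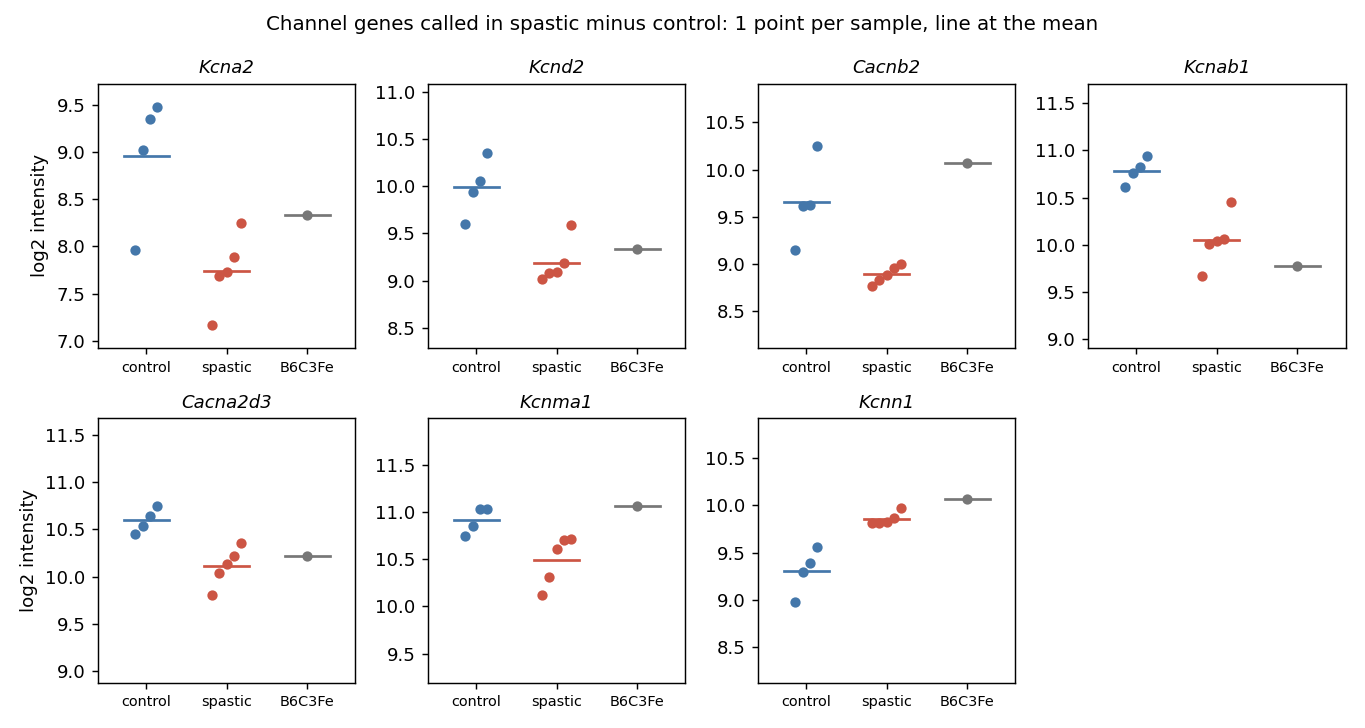
Log2 intensity of the 7 channel genes called in spastic minus control, 1 point per sample and a line at the mean, for 4 control, 5 spastic and 1 B6C3Fe samples; every panel spans the same number of log2 units. The spastic points lie below the control points for Kcnd2, Cacnb2, Kcnab1, Cacna2d3 and Kcnma1, above them for Kcnn1, and overlap 1 control point for Kcna2.

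The pore subunits of the calcium channels and the remaining subfamilies did not pass the test. Among the alpha-1 subunits the smallest p was that of Cacna1c, the L-type channel Cav1.2, at 9.62 ± 0.15 (SD, n = 4) in controls and 9.42 ± 0.20 (SD, n = 5) in spastic cords (difference -0.21, SE 0.13, adjusted p = 0.282, limma). Cacng2, stargazin, which also guides AMPA receptors to synapses, was at 10.05 ± 0.18 (SD, n = 4) and 10.35 ± 0.38 (SD, n = 5), and its highest value, 10.99, was that of M. Scn8a, the main sodium channel of the mature node, ran from 9.34 to 10.44 in controls and from 9.22 to 10.32 in spastic cords (difference -0.28, SE 0.26, adjusted p = 0.488, limma). A further Scn8a probe set was at the floor on all 16 arrays and gives no value.

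Hcn2, the pacemaker channel, was at 11.71 ± 0.20 (SD, n = 4) in controls and 12.08 ± 0.42 (SD, n = 5) in spastic cords, with M highest at 12.72 (difference 0.35, SE 0.19, adjusted p = 0.22, limma). Its further probe set gave 0.42. Kcnh2, the ERG potassium channel, was at 11.05 ± 0.13 (SD, n = 4) and 11.32 ± 0.18 (SD, n = 5), a difference of 0.28 (SE 0.11) with an adjusted p = 0.0876 in limma's fit. Kcnj11, the pore of the ATP-sensitive potassium channel, differed by 0.34 (SE 0.35), the 2-pore channel Kcnk4 by 0.14 (SE 0.13) and Kcnq1, a Kv7 channel, by -0.03 (SE 0.13). For these genes the spread between samples was too wide, or the difference too small, for a call with these samples, and a missing call does not show equal levels.

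Probe sets of the same gene did not always move together, most of all among the chloride exchangers. Clcn3, an endosomal exchanger, has 4 probe sets. The 1 tested, which has the highest mean, was at 12.58 ± 0.17 (SD, n = 4) in controls and 12.71 ± 0.10 (SD, n = 5) in spastic cords, a difference of 0.12. The other three had lower means in spastic cords. The dimmest ran from 9.64 to 10.41 in controls and from 8.21 to 9.36 in spastic cords (difference -1.26, SE 0.27, adjusted p = 0.0349, limma, every probe set), with B6C3Fe at 10.27. The next ran from 10.16 to 10.92 and from 9.39 to 9.89 (difference -0.86, SE 0.18, adjusted p = 0.032, limma, every probe set), with B6C3Fe at 10.44. The samples of the groups did not overlap on either of these, and B6C3Fe was within the control range on both. Single arrays did overlap. Array a of the 9-month female controls read 8.94 on the dimmest and 9.615 on the next, among the spastic arrays. Its array b read 10.33 and 10.7. That array a had the highest Pcx ratio of the controls. When samples were left out in turn, the call was lost in 6 of 10 fits for the dimmest and in 8 of 10 for the next. The last of the 4 differed by -0.32 and did not pass the test (adjusted p = 0.244, limma, every probe set). Clcn3 thus had no call in the fit by gene and a lower value on 2 of 4 probe sets, and the sources used here do not give which part of the transcript each reads.

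Clcn4, a related exchanger, also had probe sets that differed in sign. The probe set tested was at 10.80 ± 0.12 (SD, n = 4) in controls and 11.10 ± 0.22 (SD, n = 5) in spastic cords (difference 0.29, SE 0.11, adjusted p = 0.101, limma). Its further probe set ran from 10.91 to 11.44 in controls and from 9.91 to 10.85 in spastic cords, with no overlap (difference -0.65, SE 0.20, adjusted p = 0.0924, limma, every probe set). On it B6C3Fe, at 10.09, was below all controls and within the spastic range, unlike on the 2 lower Clcn3 probe sets. Clcn7, of the lysosome, gave 0.18 and -0.08. Kcnab2 gave 0.31 and 0.71, both positive, and Scn1a, the sodium channel Nav1.1, gave -0.06 and -0.34, both negative. None of these passed the test in the fit of every probe set without a filter. The Clcn3, Clcn7, Kcnab2 and Scn1a probe sets are described because they disagree in size or sign, a choice made after their values were seen.

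**Figure D3:**
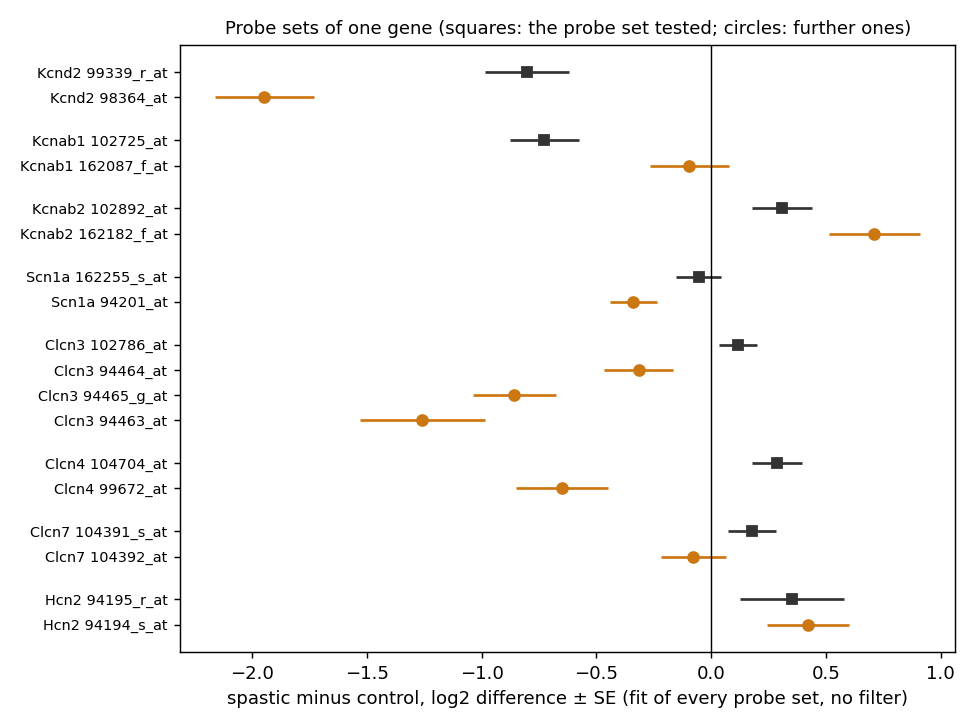
Log2 difference, spastic minus control, with its standard error for each probe set of 8 channel genes with several, from the fit of every probe set without a filter; squares are the probe sets used in the fit by gene and circles are further ones. The Clcn3 and Clcn4 squares lie right of 0 and their circles left of it, while both Kcnd2 marks lie left of 0.

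With the filter kept and every probe set above it tested, 11 of 47 channel probe sets passed, 23.4%, against 19.6% of all 7453. Beside those of the 7 called genes these were 2 of Clcn3, the further Clcn4 probe set (-0.65, adjusted p = 0.0266, limma) and the further Kcnab2 probe set (0.71, adjusted p = 0.0181, limma). That Kcnab2 probe set is of class f. In the fit of every probe set without a filter, 8 of 88 channel probe sets passed the test, 9.09%, against 9.94% of all 12422. They were the probe sets of Kcnab1, Cacna2d3 and Kcnn1 tested above, both of Kcnd2, 2 of Clcn3, and that of Scn7a. Scn7a, a sodium channel homologue that senses sodium levels, was below the filter. It ran from 6.14 to 6.90 in controls and was at the floor on all 6 spastic arrays (difference -0.67, SE 0.13, adjusted p = 0.0237, limma), and 2 of 8 control arrays were at the floor too. Because floored values have no spread, this p is less firm than those of brighter genes, and the difference is understated.

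Of the 31 genes below the filter, several were seen on few arrays, and those named here were chosen with their values known. Kcnmb1 and Kcnj5, and 1 probe set each of Kcnj1 and Kcnj15, were at the floor on all 16 arrays. Kcnj2 was above it on a single array. Scn3a was at the floor on 14 arrays, all but those of B6C3Fe. Kcna4 was at the floor on all 6 spastic arrays and between 6.10 and 6.80 in the control samples. Kcna3, with control samples at 7.45 to 8.18 and spastic samples at 6.46 to 7.43, differed by -0.70 without passing the test (adjusted p = 0.139, limma, every probe set). Of channel genes known from skeletal muscle, Cacna1s was at 7.52 in controls, 6.79 in spastic cords and 7.63 in B6C3Fe, and a Clcn1 probe set was at 7.29, 7.65 and 7.92.

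Against the B6C3Fe cord, 0 of 37 channel genes were called in spastic cords, where 2.05% of all genes were, and 6 had an unadjusted p under 0.05 (1304 of all genes). Between the B6C3Fe cord and the controls 0 of 37 were called, against 0.389% of all genes, and 5 had an unadjusted p under 0.05 (965 of all genes). Both comparisons were made with limma and rest on 1 B6C3Fe sample, which was assumed to vary like the others. They share samples with the comparison of spastic and control cords, so their values are set side by side. For Kcnab1, Kcnd2, Cacna2d3 and Kcnn1 the B6C3Fe cord lay nearer the spastic mean than the control mean. Kcnab1 differed by -1.05 between B6C3Fe and control (SE 0.25, adjusted p = 0.0945, limma) and by 0.33 between spastic and B6C3Fe. Kcnn1 differed by 0.75 and -0.20 in the same order, Kcnd2 by -0.62 and -0.18, and Cacna2d3 by -0.26 and -0.24.

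For Cacnb2 and Kcnma1 the B6C3Fe cord lay above the control mean. Cacnb2 was lower in spastic than in B6C3Fe by -1.04 (SE 0.31, unadjusted p = 0.0063, adjusted p = 0.112, limma), and Kcnma1 differed by -0.62 (SE 0.24, adjusted p = 0.187, limma). Kcna2 in the B6C3Fe cord lay between the means of the other groups. The lowest adjusted p in the comparison of spastic with B6C3Fe, 0.101 in limma's fit, was that of Cacna1g, the T-type calcium channel Cav3.1. Its B6C3Fe value was 6.73, against 7.61 to 8.71 in controls and 7.89 to 8.79 in spastic cords. That gene is named for its position in this comparison.

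Age within the controls gave no call. Between 12 and 9 months 0 of 37 channel genes and 0% of all genes passed limma's test, while 4 channel genes and 346 of all genes had an unadjusted p under 0.05. These 4 were Kcna2 (0.93 higher at 12 months), Kcna1 (0.68), Kcnc1 (0.61) and Cacnb2 (0.55), with adjusted p = 0.906 for each in limma's fit. In all 4 the 9-month female was the lowest or next to the lowest control. As all 4 were higher at 12 months, a low 9-month sample is likely from that choice alone. When the B6C3Fe cord joined the controls and log2 age was a term, Cacnb2 alone of the 7 genes passed the test (difference -0.86, adjusted p = 0.0255, limma). The other differences in that fit kept their sign, from -0.88 for Kcna2 to 0.19 for Kcnn1.

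Genes that hold channels in place or tune them were read from a list of 38 partner and node proteins, of which 19 were tested. Of these, 3 fell and 3 rose, beside 9.93% and 9.83% of all genes tested. The other 13 did not pass the test, and the median difference over the 19 was -0.09. The falls were in Fgf12, which binds sodium channel tails (-1.29, SE 0.23, adjusted p = 0.00402, limma), Nrcam, an adhesion molecule of the node (-1.09, SE 0.19, adjusted p = 0.00399, limma), and Cntn1, the contactin of the junctions beside it (-0.62, SE 0.12, adjusted p = 0.00595, limma). The spastic mean of Fgf12, 7.22, was under the filter of 7.62. Fgf12 was thus tested through its levels in controls (8.52) and B6C3Fe (8.33). The rises were in Dpp6, an auxiliary subunit of Kv4 channels such as Kcnd2 (0.58, adjusted p = 0.0237), and in the ankyrins Ank1 (0.42, adjusted p = 0.0201) and Ank3 (0.38, adjusted p = 0.03), all from limma. Ankyrin G, coded by Ank3, anchors sodium channels, and a further Ank3 probe set gave -0.30. The Ank1 probe set tested is of the maker's class f, which can read related transcripts. Both ankyrins are named beyond the 4 partners the rule allows, with their values known. The calls of Fgf12, Nrcam and Cntn1 held in all 10 fits that left out 1 sample. That of Ank3 was lost without the 12-month female control, the 9-month male control, M, spastic cord 1, sev or the 3+ month male, and that of Ank1 without the 9-month male control, either 12-month control or the 3+ month male. That of Dpp6 was lost without either 9-month control, the 12-month female control or sev. Without the 2 spastic samples titled male, Fgf12 and Dpp6 kept their calls, while Nrcam, Cntn1, Ank1 and Ank3 lost theirs. With female-titled samples alone, Dpp6 kept its call, while Fgf12, Nrcam, Cntn1, Ank1 and Ank3 lost theirs. The B6C3Fe cord had the highest Dpp6 value, 11.91, against means of 10.54 in controls and 11.14 in spastic cords, and the Dpp6 difference was -0.06 when B6C3Fe joined the controls and log2 age was a term.

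Pumps and exchangers restore the gradients that channels use. Of 13 tested, 3 fell and 1 rose (median difference -0.14), beside 9.93% and 9.83% of all genes tested. The falls were in the sodium-calcium exchanger Slc8a1 (-1.06, SE 0.18, adjusted p = 0.00399, limma), the sodium pump subunit Atp1b1 (-0.47, adjusted p = 0.0216, limma) and the chloride importer Slc12a2 (-0.34, adjusted p = 0.0258, limma). The Atp1b1 probe set tested is of class f too. The rise was in Atp1b2, the sodium pump subunit of glia (0.73, SE 0.22, adjusted p = 0.04, limma), and it was 0.29 with array a dropped from the 9-month female controls (adjusted p = 0.135). Slc12a5, the neuronal chloride exporter that sets the strength of glycine inhibition, differed by -0.31 (SE 0.26, adjusted p = 0.439, limma) and is named for that role. Of the called pumps, Slc8a1 kept its call in all 10 fits that left out 1 sample. Atp1b1 lost it without the 12-month female control or the 3+ month male, and Slc12a2 without the 12-month female control, the 9-month male control, spastic cord 1 or the 3+ month male. Atp1b2 kept it in 2 of these 10 fits, those without the 3+ month male and without B6C3Fe. Without the 2 spastic samples titled male, Slc8a1 and Slc12a2 lost their calls, while Atp1b1 and Atp1b2 kept theirs. With female-titled samples alone, all 4 pumps lost theirs. None of these 6 partners and 4 pumps stayed called in limma's fit when the Pcx ratio was a term (adjusted p = 0.0515 for Atp1b2, 0.0679 for Fgf12, 0.183 for Nrcam, 0.184 for Slc8a1, 0.239 for Cntn1, 0.329 for Atp1b1, 0.385 for Slc12a2, 0.505 for Ank1, 0.538 for Ank3 and 0.101 for Dpp6).

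Markers of other cell types moved with the same comparison, and their part in the channel results was not tested. Among all genes tested 9.83% were called higher and 9.93% lower. Of the marker falls, Map2, Syt1, Ugt8a, Myh4 and Actn3 had spastic means under the filter of 7.62. Of the rises, Acta2, Cdh5 and Abcb1a had control means under it. These genes were tested through the groups where they are high. Of the endothelial list 7 of 8 tested genes rose, with a list mean of 7.99 to 8.33 in controls, 9.09 to 9.25 in spastic cords and 8.18 in B6C3Fe. Of mural and smooth muscle genes 3 of 4 rose (7.13 to 7.42 in controls, 7.75 to 7.86 in spastic cords). Of 14 neuronal genes 2 rose and 4 fell (11.88 to 12.36 in controls, 11.65 to 11.99 in spastic cords), and of 3 motor neuron genes 2 rose (8.65 to 9.09 and 9.19 to 9.68). Of 7 oligodendrocyte genes 1 rose and 1 fell, with a list mean of 11.26 to 11.54 in controls, 10.80 to 11.17 in spastic cords and 12.04 in B6C3Fe. Of 4 precursor genes 2 rose, of 9 astrocyte genes 1 rose and 3 fell, of 9 microglial genes 3 fell, and of 2 sensory neuron genes 1 fell. Of 10 skeletal muscle genes 2 fell (8.63 to 9.24 in controls, 7.57 to 9.11 in spastic cords), with Myh2 at the floor on all arrays. Of 3 Schwann cell genes 1 rose, of 7 pituitary genes 1 rose, and of 3 blood genes none passed. The pituitary list was highest in M, at 10.31, against at most 9.28 in controls. The 11 tested Hox genes of cord position had list means of 9.63 to 9.80 in controls and 9.89 to 9.97 in spastic cords, and 2 rose.

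The 7 calls did not hold equally under other settings. All 7 were kept without M, without sev, with no sex term, with quantile normalization and with array a dropped from the 9-month female controls. Kcnab1 and Kcnd2 alone kept their calls without the 2 spastic samples titled male, with differences of -0.97 and -1.11. When the Pcx ratio was a term, 9 of all 6427 genes were called (0.14%), and none of the 7. There Kcnd2 differed by -0.79 (adjusted p = 0.175, limma), Kcnab1 by -0.63 (adjusted p = 0.184, limma) and Kcna2 by -0.34 (adjusted p = 0.673, limma). When B6C3Fe joined the controls, Kcnab1 (-0.55, adjusted p = 0.0961) and Kcnn1 (0.43, adjusted p = 0.106) lost their calls in limma's fit, and with no filter Kcna2, Kcnma1 and Cacnb2 lost theirs. Each of the 7 kept its sign in these fits.

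**Figure D4:**
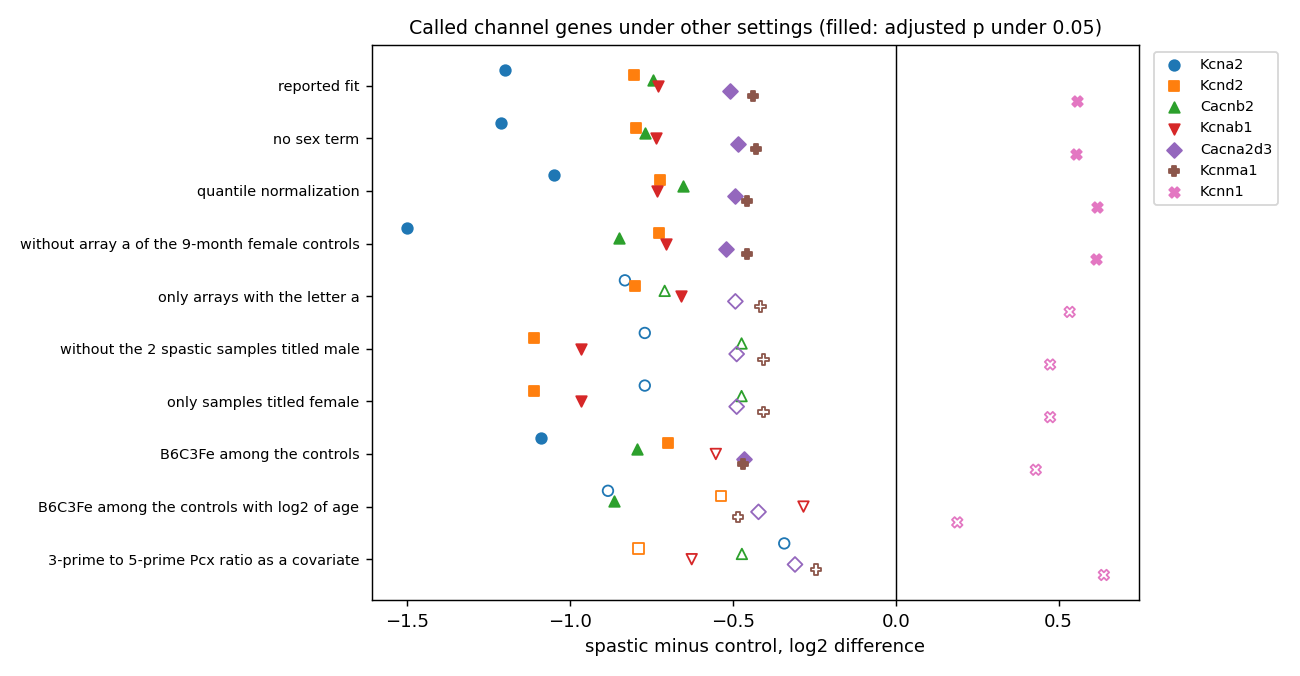
Log2 difference, spastic minus control, of the 7 called channel genes under 10 settings of the fit, 1 row per setting; filled marks have an adjusted p under 0.05. No mark crosses 0, the row with the Pcx ratio has no filled mark, and the row with log2 of age has Cacnb2 alone filled.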

How the data were processed

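Mouse spinal cord RNA was hybridised to 16 arrays, per the labels. The deposited table holds 1 linear intensity per probe set and array; the sources used here name no software. The authors' intensity values had a mean, after trimming 2% at each end, of 800.4 to 800.5 on every array, so they were taken as already scaled and not normalized again. Values under the 20th percentile (60.9) were set to it, and log2 of the deposited intensities was taken. The 66 control probe sets were left out. Probe sets were named from GEO's platform annotation; those with several symbols (396) or none (1193) were not named. A probe set was tested above the 40th percentile of mean log2, and the one with the highest mean stood for its gene. Positions of the probes are not given.

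limma 3.58.1 in R 4.3.3 (lmFit, eBayes with a trend) was fitted to the 10 samples with group and titled sex as terms and Benjamini-Hochberg adjustment over all 6427 tested, 2-sided. The fit was tested on simulated data. Arrays a and b of a title had a consensus correlation of 0.23.

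Channel genes named are those called in any comparison, the smallest p of each subfamily without a call, further probe sets of these, up to 4 called partners and as many pumps, and Glrb. Genes named beyond this rule are marked in the text. The members, lists and settings were chosen with earlier results of these data known. The lists (partners, pumps, cell markers) are described by counts. Alternatives were other floors, filters, normalization, averaging, covariates, references and left-out samples; the fit of every probe set without a filter was added after seeing the data. The number of arrays limits the precision.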

Additional observations from a re-analysis of the deposited data

Results flagged for a closer look

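Among the 74 groups of 4 or 5 samples of a tested channel gene that were looked at, 2 had a sample far from the others by Dixon's criterion, which chance meets in about 1 of 20 groups. Kcnab3, a Kv1 beta subunit, was at 8.40 in the 9-month female controls, while the other controls were at 9.40 to 9.50; the gap was 0.913 of the group's range. On that sample's arrays it was 7.58 (array a, the array with the highest Pcx ratio among controls) and 9.22 (array b). Kcnd2 was at 9.59 in the spastic sample titled sev, while the other spastic samples were at 9.02 to 9.18, a gap of 0.715 of the range. Without that sample Kcnd2 differed from controls by -0.96 (adjusted p = 0.00561, limma).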

How the results depend on the processing

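The groups differ in age as well as spastic state, in the 3-prime to 5-prime ratio of Pcx, and in sex as read from Xist and Eif2s3y. In spastic minus control, 7 channel genes were called (1 higher, 6 lower). This was 18.9% of channel genes, beside 19.8% of all genes. With only the a arrays 2 (5.41%, beside 11.8% of all genes) were called, without the 2 male-titled spastic samples 2 (5.41%, beside 6.16%), and with female-titled samples alone 2 (5.41%, beside 2.57%), each with 0 higher. With log2 age as a term and B6C3Fe joined to the controls 1 (2.7%, beside 10.9%) was called, lower. With the Pcx ratio as a term 0 were called in either direction (0.14% of all genes). With every probe set above the filter tested, 11 of 47 probe sets, not genes, were called, 2 higher and 9 lower (23.4%, beside 19.6%). With B6C3Fe joined to the controls 5 genes were called (13.5%, beside 16.4%), of which 0 were higher. Genes called higher were 3 with every array as its own replicate, 2 with the sample as a random block and 2 when array a was dropped from the 9-month female controls. In these settings 29.5%, 23.3% and 22.3% of all genes were called in either direction. Leaving out 1 sample gave 4 to 7 calls (10.8% to 18.9%, beside 11.2% to 19.8% of all genes), 1 to 2 higher and 3 to 6 lower.

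With the letter as a replicate block 10 (27%, beside 28.3% of all genes) were called, 4 of them higher. The letters do not pair the arrays: the median correlation of deviations was 0.01 for the same letter and -0.01 for other letters in other groups, and 0.12 for arrays that share a title. For spastic minus B6C3Fe, where 0 were called, the counts were 1 with no filter, 4 with every array as its own replicate, 1 with the random block, 1 with the replicate block and 1 without that array a. For B6C3Fe minus control, also 0, they were 1, 3, 2 and 3 in the first 4 of these settings. Without the B6C3Fe arrays neither comparison can be made. Shares of all genes by setting are not given for these comparisons, so these counts do not set channel genes apart from all genes. In spastic minus control, calls over all genes rose too with every array as its own replicate, to 29.5% from 19.8%. Age within controls gave 0 in every fit that could be made. The partner gene Dpp6 turned to -0.0616 (adjusted p = 0.88, limma) with log2 age as a term and B6C3Fe joined to the controls. The cause of these changes was not tested.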
